A study of Mus musculus with 6 samples.

Results

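The transcription factor NRF2 and 36 further genes of glutathione and thioredoxin metabolism, peroxide removal, conjugation and iron storage made up a list of 37 symbols. Members were taken by symbol from that list, which was drawn up with earlier results of these data known, and 36 of the 37 were found among 12389 genes in mRNA sequencing of aortic smooth muscle cells. Mgst2 is not analysed here. The cells were grown as explant cultures from mouse thoracic aorta and used untreated at passage 6 or below. The knockout (KO) cultures came from mice whose smooth muscle had been made to lack LRRC8A, a subunit that the volume-regulated anion channel needs to work, and the wild-type (WT) cultures from mice without that change. There were 3 libraries of each, described by the submitters as independent biological replicates. The genotype field gives wild type for every sample, so the titles set the groups. What drove the deletion in smooth muscle, and the animals' age and sex, were not stated in the labels.

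NRF2, encoded by Nfe2l2, is held in the cytoplasm and sent for degradation by KEAP1, whose cysteines react with oxidants and electrophiles. Freed from KEAP1, it enters the nucleus, pairs with small MAF proteins and binds the antioxidant response element in front of genes that make glutathione, reduce thioredoxin, supply NADPH, conjugate toxic compounds and break down haem. In vascular smooth muscle this system is best known for haem oxygenase-1, and much of its control acts on NRF2 protein, which mRNA sequencing does not measure.

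Values are scaled reads: estimated reads per gene divided by a factor for each library, as deposited. The estimated depth was 31.6 to 47.9 M reads in the KO libraries and 31.0 to 45.4 M in the WT libraries, highest in replicate 3 of each. Lrrc8a, the targeted gene, had 868, 672 and 506 scaled reads in KO replicates 1 to 3, against 2578, 2194 and 1221 in WT replicates 1 to 3, so transcripts remained in KO at 34.2% of the WT mean. The smooth muscle genes Acta2 and Tagln were present in all 6 libraries, Myh11 ran from 20.8 to 96.8 scaled reads in KO and from 90.1 to 1656 in WT, and Des and Myocd are not analysed here. Summed over the smooth muscle markers, 6 of 8 of them present, levels ran from 31498 to 106017 in KO and from 16520 to 205102 in WT, each with its highest value in replicate 3. Fibroblast markers (6 of 6 present) summed to 16872 to 40575 in KO and 18017 to 31307 in WT. Epithelial and mesothelial markers (5 of 8) summed to 1098 to 6769 in KO and 5562 to 9936 in WT. Cycling markers (6 of 6) summed to 3145 to 29151 in KO and 3439 to 17684 in WT. Endothelial (1 of 7) and adipocyte (2 of 6) markers reached at most 433 and 1622. The sums of all these lists overlapped between the groups. The 4 macrophage and leukocyte markers present of 8 (Cd68, Csf1r, Lyz2 and Cd14) summed to between 834 and 1676 in KO and between 1995 and 2616 in WT, without overlap, while Ptprc, Adgre1, Fcgr1 and Itgam are not analysed here. Macrophages also express Hmox1, ferritin and several conjugating enzymes. The part that any of these marker levels had in the results that follow was not tested. In bulk RNA, fewer cells of a type and less RNA per cell cannot be told apart.

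Most genes of the list were lower in KO than in WT, by small amounts, and none passed correction. On log2(value + 2), 28 of 36 members, or 77.8%, had a KO value below WT, where 49.6% of all 12363 genes tested did, and the median log2 fold change, KO over WT, was -0.35 for the members and 0.00 for all genes. With limma's moderated test and Benjamini-Hochberg adjustment over all genes, 0 members and 0 genes (0%) passed an adjusted p of 0.05. The targeted gene Lrrc8a did not pass either. Its log2 fold change was -1.51 (SE 0.34) at an unadjusted limma p of 0.0029 and an adjusted p of 0.999. In the authors' deposited table its FDR was 0.0196. An adjusted p of 0.999 here is therefore no sign that a gene was unchanged. At an unadjusted p under 0.05 there were 5 members, or 13.9%, all lower in KO, where 3.62% of all genes had such a p in either direction and 2.15% were lower in KO. They were Gclm, Mgst1, Gsta3, Hmox1 and Cbr1. The groups were fully parted for 7 members (19.4%), each time with KO below WT, where 8.43% of all genes were parted in either direction and 4.51% with KO below. They were Keap1, Gclm, Prdx6, Mgst1, Cbr1, Cbr3 and Osgin1. The authors' deposited table put 1 member, Gclm, past a false discovery rate (FDR) of 0.05, or 2.78% of the list, where 0.525% of its 12389 genes passed.

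**Figure D1:**
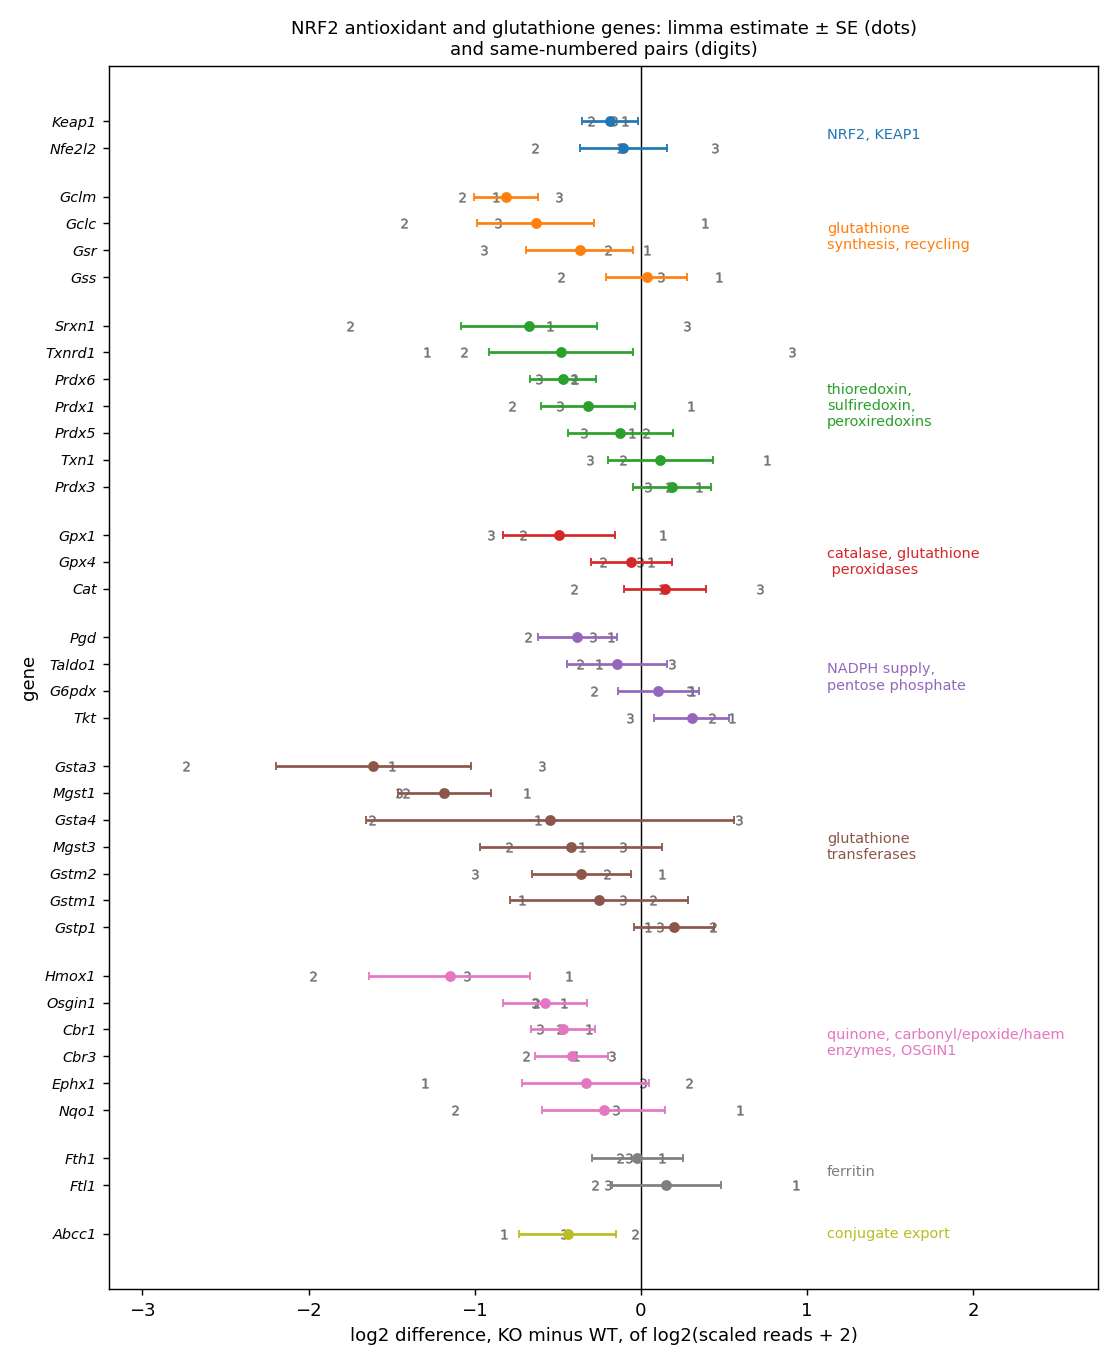
Log2 difference between KO and WT for the 36 genes, grouped by role: dots are limma estimates of log2(scaled reads + 2) with SE bars (3 libraries per group), and the digits 1 to 3 are the differences between same-numbered KO and WT libraries. Of the dots, 28 lie left of 0, and the digits of 12 genes lie left of 0 in all 3 pairs.

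**Figure D2:**
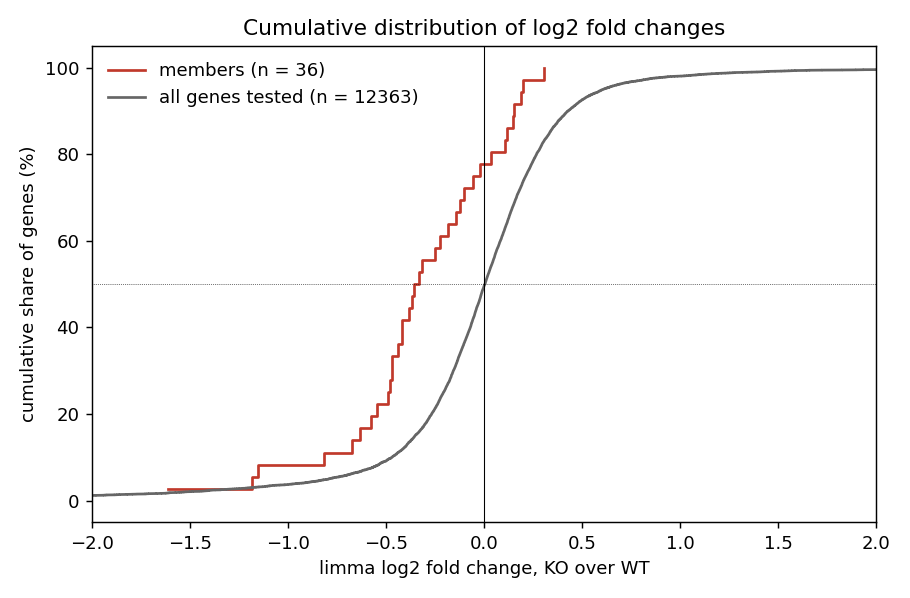
Cumulative share of genes (percent, vertical axis) up to each limma log2 fold change, KO over WT (horizontal axis, shown from -2 to 2), for the 36 members and for all 12363 genes tested. The members cross 50% at -0.35 and all genes at 0.00.

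Both regulators had log2 fold changes near 0. Nfe2l2 had 5681, 4721 and 5449 scaled reads in KO replicates 1 to 3, against 6196, 7345 and 3993 in WT, and the groups overlapped (log2 fold change -0.10, SE 0.26). Keap1 had 3330, 2904 and 3145 in KO, against 3564, 3569 and 3520 in WT. The 2 groups of Keap1 were parted, but by a narrow gap between 3330 in KO and 3520 in WT, and its log2 fold change was -0.19 (SE 0.17). Keap1 shares exon sequence with the antisense gene Gm16754, over 8.33% of its longest coding transcript in windows of 75 bases. The libraries were stranded per the labels, but no source used here says whether counting took account of strand.

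Glutathione is built in 2 steps: glutamate-cysteine ligase, made of the catalytic subunit GCLC and the modifier subunit GCLM, joins the first pair of amino acids, and glutathione synthetase (Gss) adds glycine. Glutathione reductase (Gsr) returns the oxidised form. Gclm (ENSMUSG00000028124) spans 122245557 to 122270732 on chromosome 3 in GRCm38. Its libraries stood at 4421, 3930 and 4759 scaled reads in KO replicates 1 to 3, against 8084, 8299 and 6712 in WT replicates 1 to 3. Every KO library lay well below every WT library, with group means of 4370 ± 417 in KO and 7699 ± 861 in WT (SD, n = 3 each), so that KO averaged 56.8% of WT. The limma log2 fold change was -0.81 (SE 0.19) at an unadjusted p of 0.0037 and an adjusted p of 0.999. The authors' deposited table gives Gclm a log2 ratio of -0.82 at an FDR of 0.024. By exact permutation of the libraries (two-sided) p was 0.1, the smallest value that 3 against 3 allow, for Gclm and for each of the other 6 parted genes. The antisense gene Gm17494 overlaps Gclm exons and had a log2 fold change of 0.13 (SE 0.34), on the other side of 0.

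Gclc, the catalytic partner, was less even. It had 5688, 3205 and 2959 scaled reads in KO, against 4347, 8607 and 5368 in WT. The groups overlapped, since KO replicate 1 exceeded WT replicates 1 and 3, and the log2 fold change was -0.63 (SE 0.35). The difference between same-numbered libraries was 0.39, -1.42 and -0.86 for Gclc and -0.87, -1.08 and -0.50 for Gclm. Gsr ranged from 1418 to 3364 scaled reads with a log2 fold change of -0.37 (SE 0.32), and Gss from 1736 to 2996 with 0.04 (SE 0.24). Single libraries carried much of these values: Gsr was -0.019 without KO replicate 3 and -0.64 without KO replicate 1, and Gclc was -0.35 without WT replicate 2. Per kilobase of exon, mean levels were 1049 scaled reads in KO and 1622 in WT for Gclc, 695 in KO and 1224 in WT for Gclm, 889 in KO and 1083 in WT for Gsr, and 387 in KO and 370 in WT for Gss. Gclm thus stood below Gsr in KO and above it in WT.

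Glutathione transferases couple glutathione to electrophiles, and the microsomal form encoded by Mgst1 also reduces lipid peroxides. Mgst1 (ENSMUSG00000008540) spans 138140316 to 138156755 on chromosome 6 in GRCm38. Its libraries stood at 3097, 2450 and 1661 scaled reads in KO replicates 1 to 3, against 4988, 6522 and 4554 in WT replicates 1 to 3. The groups were well apart, at 2403 ± 719 in KO and 5355 ± 1034 in WT (SD, n = 3 each), and KO averaged 44.9% of WT. Its limma log2 fold change was -1.18 (SE 0.28) at an unadjusted p of 0.00366 and an adjusted p of 0.999. With library quality weights, which weighted WT replicate 2 far above the rest, Mgst1 and Gclm each had an adjusted p of 0.0496. In the authors' deposited table Mgst1 stood just outside the threshold, with a log2 ratio of -1.16 at an FDR of 0.0564.

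Gsta3, an alpha-class cytosolic transferase, was among the lowest members, with 227, 74.0 and 127 scaled reads in KO, against 645, 505 and 194 in WT. KO was below WT in each same-numbered pair, but KO replicate 1 exceeded WT replicate 3, so the groups overlapped. The log2 fold change of Gsta3 was -1.61 (SE 0.59) at an unadjusted p of 0.028 and an adjusted p of 0.999. Gstp1, the transferase with the highest level per kilobase in this list, had 7866, 6296 and 7069 in KO, against 7635, 4657 and 6514 in WT, a log2 fold change of 0.20 (SE 0.24). Gstp1 is uncertain as a single gene, because 57.7% of the 75-base windows of its transcript also occur in Gstp2. The remaining 4 transferases ran from 83.9 scaled reads (Gsta4) to 7610 (Gstm1), with log2 fold changes of -0.25 (SE 0.53) for Gstm1, -0.36 (SE 0.30) for Gstm2, -0.42 (SE 0.55) for Mgst3 and -0.55 (SE 1.11) for Gsta4. Gstm1 shares 14.8% of its windows with other genes. Without KO replicate 3 the log2 fold change of Gstm2 was -0.078 and that of Mgst3 -0.063.

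Haem oxygenase-1, encoded by Hmox1, opens haem to biliverdin, carbon monoxide and iron, and was one of the most abundant transcripts of the list. Hmox1 had 18714, 22875 and 30122 scaled reads in KO replicates 1 to 3, against 25226, 90009 and 62322 in WT replicates 1 to 3. The spread lay mostly within WT, where replicates 2 and 3 were far above replicate 1, and WT replicate 1 fell inside the KO range. Group means were 23904 ± 5773 in KO and 59185 ± 32505 in WT (SD, n = 3 each). The log2 fold change was -1.15 (SE 0.48) at an unadjusted limma p of 0.0475 and an adjusted p of 0.999. The log2 fold change of Hmox1 was -0.76 without WT replicate 2 and -1.68 without WT replicate 1. The 4 macrophage and leukocyte markers, whose summed level was also lower in KO, had a median log2 fold change of -0.79. Of these markers Lyz2 was parted by itself, while Cd68, Csf1r and Cd14 overlapped. Their sum was 834, 1366 and 1676 in KO replicates 1 to 3, against 2616, 2524 and 1995 in WT replicates 1 to 3. Within WT the sum was highest in replicate 1, where Hmox1 was lowest, while within KO both rose from replicate 1 to replicate 3. What part these markers had in the Hmox1 difference was not tested.

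The carbonyl reductases Cbr1 and Cbr3, neighbours on chromosome 16 that reduce ketones and quinones with NADPH, were both lower in every KO library than in any WT library. Cbr1 had 1250, 993 and 986 scaled reads in KO, against 1550, 1395 and 1501 in WT. Cbr3 had 1589, 1249 and 2001 in KO, against 2085, 2016 and 2255 in WT, where the nearest libraries, KO replicate 3 and WT replicate 2, almost touched. Osgin1, an oxidative stress-induced growth inhibitor, had 498, 504 and 358 in KO, against 686, 781 and 558 in WT, again without overlap. The log2 fold changes were -0.47 (SE 0.19) for Cbr1, -0.42 (SE 0.22) for Cbr3 and -0.58 (SE 0.25) for Osgin1, each with a limma adjusted p of 0.999. Nqo1, the quinone reductase most often read as a marker of NRF2 activity, had 4409, 2202 and 2205 in KO, against 2915, 4791 and 2445 in WT. Its groups overlapped throughout and its log2 fold change was -0.22 (SE 0.37). The epoxide hydrolase gene Ephx1 ranged from 11655 to 28726 with -0.33 (SE 0.38), and KO was below WT in 1 of 3 pairs. Without WT replicate 1 the log2 fold change of Ephx1 was -0.051, and without KO replicate 2 that of Cbr3 was -0.25.

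**Figure D3:**
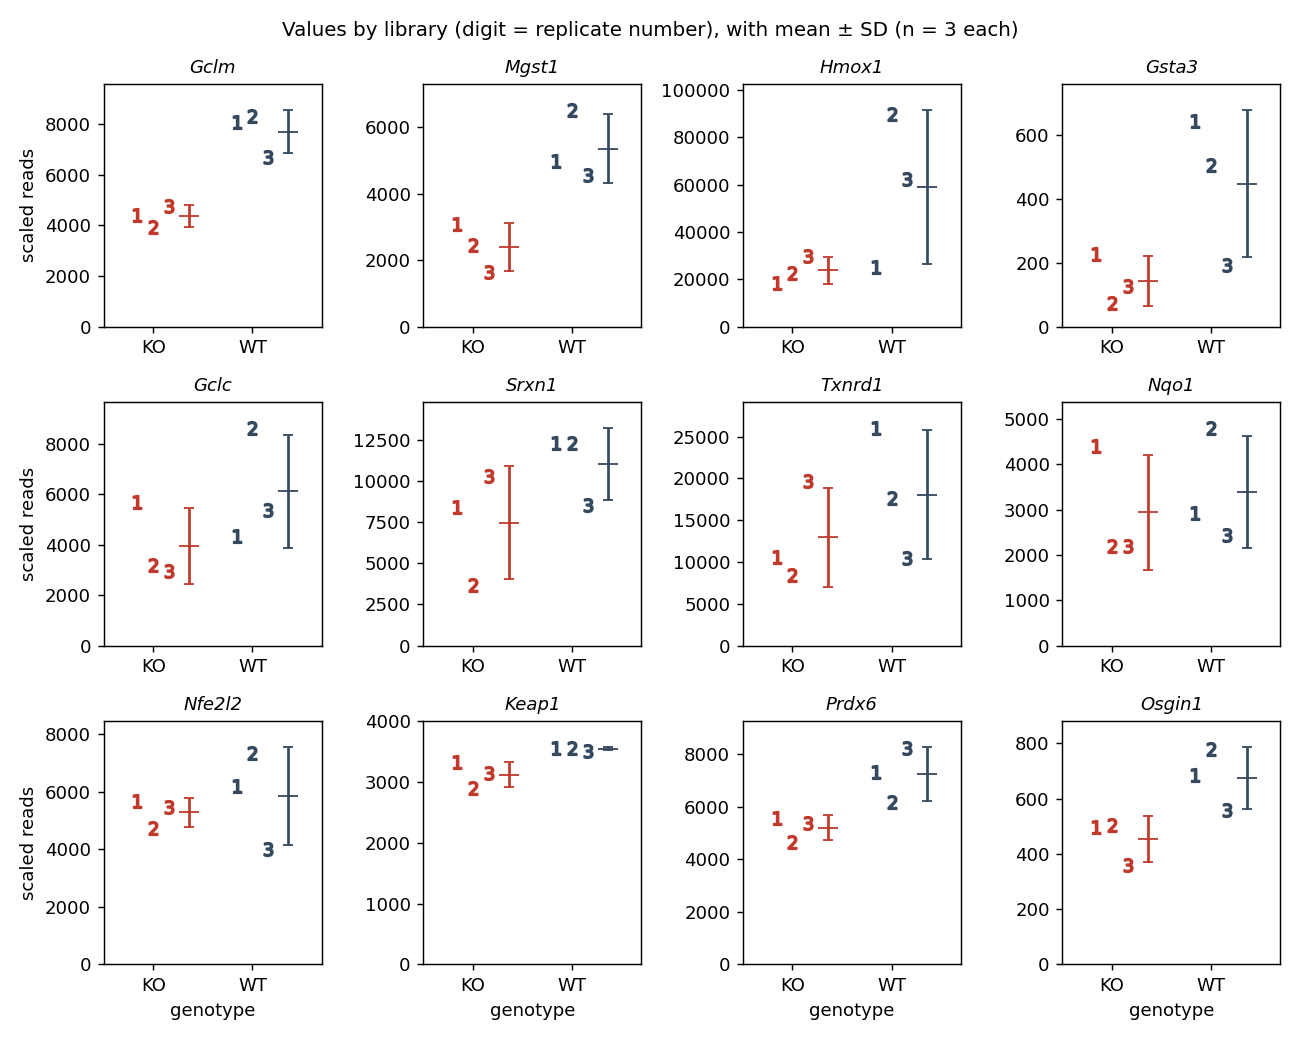
Scaled reads (vertical axes, from 0) of 12 genes in the 3 KO libraries (red, left) and the 3 WT libraries (dark, right); each digit is a library's replicate number, and bars give the mean ± SD. Gclm, Mgst1, Keap1, Prdx6 and Osgin1 are parted, Keap1 by the gap between 3330 in KO and 3520 in WT, while Hmox1, Gsta3, Gclc, Srxn1, Txnrd1, Nqo1 and Nfe2l2 overlap.

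Thioredoxin (Txn1) is kept reduced by the selenoprotein thioredoxin reductase (Txnrd1). Peroxiredoxins destroy peroxides with its electrons, and sulfiredoxin (Srxn1) repairs peroxiredoxins that have been over-oxidised. Prdx6, which uses glutathione in place of thioredoxin, had 5565, 4677 and 5392 scaled reads in KO, against 7315, 6177 and 8246 in WT. Its groups did not overlap, and the log2 fold change was -0.47 (SE 0.20) at an unadjusted limma p of 0.0509 and an adjusted p of 0.999. Txnrd1 had 10649, 8461 and 19711 in KO, against 25984, 17682 and 10503 in WT, and Srxn1 had 8394, 3645 and 10307 in KO, against 12265, 12261 and 8516 in WT. For both, KO was below WT in pairs 1 and 2 and above it in pair 3, and the log2 fold changes were -0.48 (SE 0.44) for Txnrd1 and -0.67 (SE 0.41) for Srxn1. Txnrd1 was -0.17 without WT replicate 1, and Srxn1 was -0.22 without KO replicate 2.

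Prdx1, the peroxiredoxin with the highest level per kilobase, had 11379, 10411 and 9123 scaled reads in KO, against 9220, 17796 and 12794 in WT (log2 fold change -0.32, SE 0.28). WT held both high values, in replicates 2 and 3, and KO replicate 3 was the lowest library. Without WT replicate 2 the log2 fold change of Prdx1 was -0.082. The mitochondrial peroxiredoxin Prdx3 ranged from 1460 to 2430 scaled reads and was above WT in all 3 pairs at a log2 fold change of 0.19 (SE 0.24), which was 0.0088 without WT replicate 1. Prdx5 ranged from 4751 to 9751 with -0.12 (SE 0.32), and Txn1 from 2395 to 5495 with 0.12 (SE 0.31). Prdx5 overlaps Trmt112, with which it shares 28.2% of its windows. Gpx1, the main cytosolic glutathione peroxidase, had 7591, 5319 and 8129 in KO, against 6917, 8687 and 15192 in WT, a log2 fold change of -0.49 (SE 0.34) with overlapping groups. Without WT replicate 3, its highest library, Gpx1 was at -0.17. Gpx4, which reduces lipid peroxides in membranes, ranged from 1733 to 2659 with -0.06 (SE 0.24), and catalase (Cat), the peroxisomal enzyme, from 3360 to 5517 with 0.15 (SE 0.25). Gpx4 is uncertain because 55.3% of its windows occur in other genes, led by the pseudogene Gpx4-ps2.

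Enzymes of the pentose phosphate pathway, whose oxidative branch feeds NADPH to these reductases, had log2 fold changes on both sides of 0. Glucose-6-phosphate dehydrogenase, encoded by G6pdx, had 7396, 4387 and 5964 scaled reads in KO, against 5981, 5336 and 4865 in WT, a log2 fold change of 0.11 (SE 0.24). Pgd, the next dehydrogenase, ranged from 7355 to 12495 and was below WT in all 3 pairs at -0.38 (SE 0.24). In the non-oxidative branch Taldo1 ranged from 2437 to 4866 with -0.14 (SE 0.30), and Tkt from 6796 to 10218 with 0.31 (SE 0.23).

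Ferritin, the iron store built from heavy (Fth1) and light (Ftl1) chains, was abundant, and its genes had log2 fold changes near 0. Ftl1 had 61409, 49753 and 54334 scaled reads in KO, against 32139, 60332 and 62341 in WT, a log2 fold change of 0.15 (SE 0.33). WT replicate 1 was the low library. Fth1 ranged from 49796 to 74326 with -0.02 (SE 0.27), and its direction turned under scaling to the library total (0.01) and quantile normalization (0.03). Ftl1 is uncertain as a single gene, because 84.8% of its windows occur in other genes, led by Ftl1-ps1. The exporter Abcc1, which carries glutathione conjugates out of the cell, had 5693, 6023 and 4048 in KO, against 10061, 6177 and 5575 in WT. KO was below WT in all 3 pairs of Abcc1 at a log2 fold change of -0.44 (SE 0.29), with overlapping groups, and at -0.18 without WT replicate 1.

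Per kilobase of exon the order of mean levels in KO was led by Ftl1 (41168 scaled reads), Fth1 (17192), Hmox1 (13651), Ephx1 (8295) and Gpx1 (4867). In WT the same places were held by Ftl1 (38510), Hmox1 (33801), Fth1 (17514), Ephx1 (10461) and Gpx1 (7124). Hmox1 and Fth1 thus stood in opposite order by this measure, which divides by all exon bases of a gene merged over its transcripts. The order rests on that length, 3469 bases for Fth1 and 1751 for Hmox1, where their longest coding transcripts have 1494 and 1569. Undivided, Fth1 was higher in both groups, with means of 59639 in KO and 60756 in WT, against 23904 and 59185 for Hmox1. The WT libraries of Hmox1 ranged from 25226 to 90009 scaled reads and overlapped those of KO.

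The members were next read against their promoters, because the 3 genes with the smallest p, Gclm, Mgst1 and Gsta3, each hold a core of the antioxidant response element near the start of transcription. The core searched was TGACNNNGC on either strand, within 250 bases before and 50 after each start in the RefSeq annotation of GRCm38.p6. Of the 37 symbols 31 had a promoter in that table. Hmox1, Gclc, Gsr, Prdx6, Gsta4 and Abcc1 had none there and were not searched. The core was held by 9 of the 31, or 29.0%, against 12.4% of all 32851 promoters and 14.0% of the 27025 genes with a promoter. Many members are known NRF2 targets and were listed as such, so this share says nothing independent. The core can coincide with the AP-1 site TGACTCA, as it does in Prdx1. The promoters of Gclm (chr3:122245307-122245606, plus strand), Mgst1 (chr6:138140277-138140576, plus strand) and Gsta3 (chr1:21240335-21240634, plus strand) are shown because these genes had the smallest p of the list. Mgst1 and Pgd each have a second annotated promoter without a core, which for Pgd is the one nearer the outer start of the gene. Txnrd1 has further promoters without a core, among them the promoter at the outer start of the gene. Capitals mark the core, which in Gclm and Mgst1 reads from the opposite strand.
Gclm: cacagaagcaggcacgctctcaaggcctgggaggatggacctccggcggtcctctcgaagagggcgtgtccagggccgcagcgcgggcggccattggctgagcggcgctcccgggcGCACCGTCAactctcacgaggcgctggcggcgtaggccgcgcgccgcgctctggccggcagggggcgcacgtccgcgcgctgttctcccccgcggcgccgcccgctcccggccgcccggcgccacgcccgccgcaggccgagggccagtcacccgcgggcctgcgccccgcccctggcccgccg
Mgst1: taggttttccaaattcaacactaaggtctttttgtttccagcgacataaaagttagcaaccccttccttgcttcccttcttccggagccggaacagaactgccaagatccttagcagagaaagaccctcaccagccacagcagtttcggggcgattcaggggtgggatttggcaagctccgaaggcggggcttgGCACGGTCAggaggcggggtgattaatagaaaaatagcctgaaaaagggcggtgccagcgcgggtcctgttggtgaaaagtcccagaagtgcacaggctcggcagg
Gsta3: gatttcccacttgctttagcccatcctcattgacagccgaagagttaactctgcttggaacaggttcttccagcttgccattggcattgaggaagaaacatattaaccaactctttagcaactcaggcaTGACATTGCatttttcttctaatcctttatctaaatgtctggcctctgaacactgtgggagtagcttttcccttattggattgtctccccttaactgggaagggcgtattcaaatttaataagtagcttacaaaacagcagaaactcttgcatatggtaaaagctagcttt

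In Gclm the core ended 126 bases before the start, in Mgst1 48 bases and in Gsta3 113 bases. The other 6 genes with a core are shown as 29-base windows with the core in capitals, turned so that it reads TGACNNNGC, to set their middle and flanking bases side by side. They lie at chr4:116685456-116685484 (Prdx1), chr10:82859104-82859132 (Txnrd1), chr2:75704885-75704913 (Nfe2l2), chrX:74428919-74428947 (G6pdx), chr2:152105542-152105570 (Srxn1) and chr4:149166061-149166089 (Pgd), read from the plus strand for G6pdx and from the minus strand for the rest. The core ended 232 bases before the start in Nfe2l2, 125 in Prdx1, 84 in Txnrd1 and 49 in G6pdx, and began 4 bases after it in Pgd and 29 in Srxn1.
Prdx1: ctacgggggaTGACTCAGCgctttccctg
Txnrd1: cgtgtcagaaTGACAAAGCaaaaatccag
Nfe2l2: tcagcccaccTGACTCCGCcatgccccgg
G6pdx: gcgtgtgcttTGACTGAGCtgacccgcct
Srxn1: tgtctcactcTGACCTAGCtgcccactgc
Pgd: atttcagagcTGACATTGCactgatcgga

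The genes with a core differed in their log2 fold changes. Gsta3 and Pgd share the 9 letters TGACATTGC, before the start in Gsta3 and just after a start that lies inside the gene in Pgd. Gsta3 and Pgd had -1.61 and -0.38, while G6pdx, with a core, had 0.11. Of the 9 genes with a core 8 were below 0, at a median of -0.48. Of 21 measured genes searched and found without a core 14 were below 0, at a median of -0.14. The 6 genes not searched were all below 0, at a median of -0.51. As the search was prompted by the genes with the smallest p, the difference between these groups is not independent of them and was not tested. No match says only that these letters are not in the window.

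The difference varied from culture to culture. By same-numbered libraries the median member difference was -0.11, -0.44 and -0.17 for replicates 1, 2 and 3. KO was below WT in all 3 pairs for 12 members (33.3%) and above in all 3 for 2 (5.56%), where 15.0% and 15.7% of all genes did so. Library by library, KO replicate 2 held the lowest value of 13 of 36 members and the highest of 0, where it was lowest for 13.3% and highest for 11.7% of all genes. KO replicate 3 was lowest for 11 members, where 21.9% of all genes had their lowest value there. WT replicate 2 held the highest value of 10 members and the lowest of 1, where it was highest for 12.1% and lowest for 9.52% of all genes. WT replicate 1 was also highest for 10 members, where 20.8% of all genes were highest there. Without WT replicate 2 the members' median was -0.27 with 25 below 0, and without KO replicate 2 it was -0.26 with 27 below 0.

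For 24 of 36 members (66.7%) the range between replicate numbers, averaged over genotypes, exceeded the difference between genotypes, where 83.0% of all genes showed the same. Replicate 3 had the lowest mean over genotypes for 16 of 36 members, where 39.5% of all genes had theirs there. The transferases Gsta4, Gstm1 and Mgst3 had the widest ranges over numbers. Gsta4 had 687, 321 and 127 scaled reads in KO replicates 1 to 3, against 1054, 991 and 83.9 in WT, so that replicate 3 was lowest in both groups and the range over numbers was 3.02 on the log2 scale. Gclm stood at the other end, with a range over numbers of 0.08 beside a genotype difference of 0.81 in size. With the replicate number as a block, 7 members had an unadjusted limma p under 0.05, all lower in KO, against 7.42% of all genes in either direction and 4.25% lower. They were the 5 named above with Prdx6 and Osgin1, and 0 passed an adjusted p of 0.05, the smallest being 0.335 for Mgst1.

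**Figure D4:**
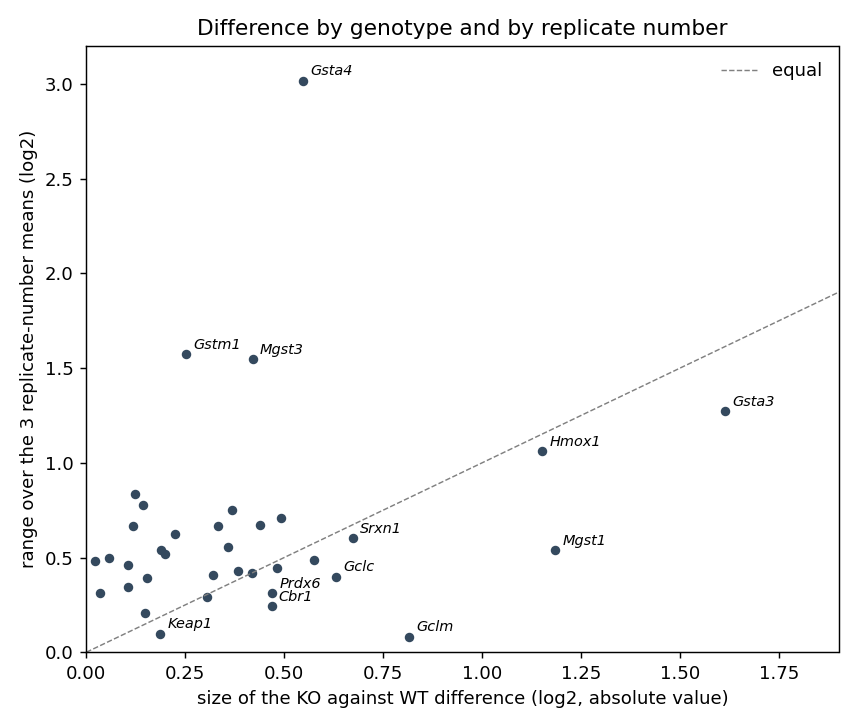
Each dot is 1 of 36 genes, placed by the size of its KO against WT difference (horizontal, log2) and by the range of its means over replicate numbers 1 to 3 (vertical, log2); the dashed line marks equal values. The 24 dots above the line, led by Gsta4 at 3.02, have a range over numbers larger than their genotype difference, and Gclm lies lowest, at 0.08. The axes are unlike measures, and 83.0% of all genes lie above the line.

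Other genes of the pathway were read from 5 lists with no member in common with the first. Of 14 partners and regulators of NRF2, 9 (64.3%) were below 0, where 49.6% of all genes were, with a median of -0.05. The small MAF proteins, which NRF2 needs to bind DNA, had log2 fold changes of -0.85 (SE 0.46) for Maff, -0.50 (SE 0.27) for Mafg and -0.44 (SE 0.40) for Mafk, and Sqstm1, which draws KEAP1 into autophagy, had -0.45 (SE 0.30). Maff was -0.46 without WT replicate 1 and -1.39 without WT replicate 3. All 20 further targets and suppliers were present, 15 of them (75%) below 0, where 49.6% of all genes were, with a median of -0.26. Slc7a11, which imports the cystine used for glutathione, had 502, 699 and 474 scaled reads in KO, against 1272, 1290 and 574 in WT. Only KO replicate 2 of Slc7a11 exceeded the lowest WT library, and the log2 fold change was -0.83 (SE 0.37). The aldose reductase Akr1b3 had -0.81 (SE 0.39) and the thioredoxin-binding protein Txnip -0.64 (SE 0.37, but 0.06 with library quality weights). Without a block, 0 of these 34 genes had an unadjusted limma p under 0.05, where 3.62% of all genes did. With the replicate number as a block 5 did, where 7.42% of all genes did: Maff (0.0371), Mafg (0.032), Slc7a11 (0.0175) and Akr1b3 (0.0124), all lower in KO, and Idh2 (0.0422), which was higher at 0.63. The smallest adjusted limma p among them with the block was 0.529.

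Of 11 other transferases 6 (54.5%) were below 0, near the 49.6% of all genes, with Gstt2 at -1.55 (SE 0.67), Gstt1 at 0.65 (SE 0.40) and Gstz1 at 0.44 (SE 0.29). With limma 0 of the 11 had an unadjusted p under 0.05, where 3.62% of all genes did. With the replicate block 1 of the 11 did, Gstt1 (0.025), where 7.42% of all genes did. Among 19 other peroxiredoxins, thioredoxins, glutaredoxins, peroxidases and dismutases 10 (52.6%) were below 0, near the 49.6% of all genes, with a median of -0.11. An unadjusted limma p under 0.05 was found for 2 of the 19, Gpx3 and Sod3, both lower in KO, where 3.62% of all genes had one and 2.15% were lower in KO. Gpx3, the secreted glutathione peroxidase, had 2259, 536 and 67.6 scaled reads in KO, against 2422, 5286 and 8395 in WT. Its groups were parted by the narrow gap between replicate 1 of KO and replicate 1 of WT, and its log2 fold change of -3.44 (SE 1.23) had an adjusted p of 0.999. With the replicate block its unadjusted limma p was 0.102. The extracellular superoxide dismutase Sod3 had -2.27 (SE 0.41), at a limma adjusted p of 0.98. Its FDR was 4.52e-05 in the authors' deposited table. Gpx7 had 0.37 (SE 0.32). Across the 5 lists 48 of 76 genes (63.2%) were below 0, where 49.6% of all genes were, with a median of -0.15. Of the 76, 0 passed an adjusted limma p of 0.05.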

How the data were processed

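Poly(A)-selected, stranded mRNA libraries were sequenced from 3 KO and 3 WT cultures, per the labels' protocols, and titles set the groups. The submitters' processing notes list STAR, Partek, DESeq2, GRCm39 and mm39 but give neither their roles nor their versions. The gene positions deposited are nonetheless those of GRCm38: 12341 of 12385 genes share their start with GENCODE M21.

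The per-library values that the authors deposited, under a raw count name, are a scaled signal and not counts: 1 read was worth 0.712 to 1.16 in KO and 0.791 to 1.19 in WT. Their second per-library table holds nearly the same values. The authors' deposited comparison gives p-values with a step-up FDR, a KO over WT ratio, its log2 and group mean signals, per the file headers.

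The count test first planned was therefore replaced by limma 3.58.1 (R 4.3.3) with statmod 1.5.0 on log2(value + 2), for the 12363 of 12389 genes with at least 10 in at least 3 libraries. Genotype was the only term, priors were robust with a mean trend, and p-values were two-sided with Benjamini-Hochberg adjustment over all genes tested. Fold changes on this scale understate low genes. At 31.0 to 47.9 M estimated reads per library, spread between cultures set the precision (median residual SD 0.36, log2). P-values measure the spread between these 6 cultures.

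The members and lists were chosen with earlier results of these data known. Named genes followed a fixed rule: values in all libraries for regulators, commonly read NRF2 targets, members with an unadjusted p under 0.05 or parted groups, and the highest member per length of each role, with the rest by range, and for other lists the genes with the smallest p. Mafk, Idh2, Slc7a11's per-library values and those of Gpx3 were added after their values were seen. Same-numbered KO and WT libraries deviated together (correlations across genes 0.433, 0.151 and 0.389). The numbers were therefore taken to pair them in the pair differences and the replicate block, but not in the main fit. Correlations for other matchings were not computed, and replicate 3 was the deepest library of both groups. The labels do not say what such a number stands for. Shared sequence is the share of 75-base windows of a gene's longest coding transcript found in another gene. Promoters are from RefSeq (GRCm38.p6). Alternatives covered scaling, filters, pseudocounts, the other table, priors, the replicate block, library quality weights and leaving out each library.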

Additional observations from a re-analysis of the deposited data

How the results depend on the processing

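Under 19 other settings, 20 of 36 members stayed below 0 and 2 (Prdx3 and Tkt) above 0 in every one, and 14 changed sign at least once. Members below 0 numbered 25 to 31, and their median ran from -0.46 to -0.23. The 0 genes past an adjusted p of 0.05 became 30 (24 lower in KO) with library quality weights and 5 with weights and the replicate block, against 0 to 1 leaving out 1 library. Of the members, 2 (Gclm and Mgst1) passed with the weights and 0 under every other setting. The weights gave WT replicate 2 7.985 and no other library above 1.969, and under the block their estimation stopped before converging. The replicate block alone left 0 genes past, with 917 at an unadjusted p under 0.05, against 447 without it, and changed no call at an adjusted p of 0.05.

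Signs turned with the weights for Gss (-0.20, and -0.17 with the block), Cat (-0.17, and -0.12 with the block), G6pdx (-0.019, and -0.061 with the block), Gstm1 (0.027), Ftl1 (-0.13) and Txnip (0.061). Fth1 was 0.010 with total scaling and 0.033 with quantile normalization. Leaving out 1 library gave ranges across 0 for Nfe2l2 (-0.36 to 0.083), Gss (-0.18 to 0.22), Txn1 (-0.19 to 0.41), Prdx5 (-0.33 to 0.16), Cat (-0.019 to 0.32), Gpx4 (-0.24 to 0.094), G6pdx (-0.071 to 0.31), Taldo1 (-0.43 to 0.072), Gsta4 (-1.74 to 0.074), Gstm1 (-0.69 to 0.24), Gstp1 (-0.00092 to 0.36), Nqo1 (-0.56 to 0.056), Ftl1 (-0.16 to 0.32) and Fth1 (-0.12 to 0.13). For the leave-outs fewer libraries entered each fit, and for the other turns the cause was not tested.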

Other observations

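Genes that break glutathione down, or handle its sulfur, were the fifth list read beside the NRF2 genes. Of 12 measured 8 (66.7%) were below 0, where 49.6% of all genes were, at a median log2 fold change of -0.50. An unadjusted limma p under 0.05 was found for 3, all lower in KO, where 3.62% of all genes had one and 2.15% were lower in KO. Chac1, a cytosolic enzyme that cleaves glutathione, had 513, 449.6 and 205 scaled reads in KO replicates 1 to 3, against 722, 1158 and 726 in WT. Ggct, which acts on the gamma-glutamyl products of such cleavage, had 659, 557 and 532 in KO, against 748, 892 and 1343 in WT. Ggt5, a cell-surface gamma-glutamyl transferase, had 89.8, 75.1 and 109 in KO, against 209.8, 218 and 441 in WT. The groups of all 3 genes were parted, where 8.43% of all genes were parted in either direction and 4.51% with KO below. The log2 fold change was -1.22 (SE 0.40) for Chac1, -0.73 (SE 0.27) for Ggct and -1.57 (SE 0.45) for Ggt5, and each had an adjusted limma p of 0.999. Mpst, a sulfurtransferase named here after its values were seen, was parted the other way, with 848, 829 and 817 in KO, against 693, 595 and 768 in WT (log2 fold change 0.28, SE 0.20).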
